A study of Mus musculus with 30 samples.

Results

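The report covers 9 genes of the myogenic programme, taken by name from the 56748 genes of the count table: the satellite cell genes Pax7 and Cdh15, the myogenic regulatory factors Myf5, Myod1, Myog and Myf6, their partner Mef2c, and the fusion genes Mymk and Mymx. All 9 passed the filter on low counts and were among the 17518 genes tested. They were measured by poly(A)-enriched RNA-seq in quadriceps of 30 mice in 8 groups. WT mice were untreated FVB/N animals (n = 5). Every other group was homozygous for HSA-LR20b, a transgene in which the human skeletal actin promoter drives actin RNA with an expanded CUG repeat in skeletal muscle, which the labels call DM1. Of these, 8 mice were nontreated (NT) and the rest were injected through the tail vein. pacDNA-L9 was given to 4 mice at 5.3, to 3 mice at 21.2 and to another 3 at 42.4 mg/kg. Controls were 3 mice with free L9 and 2 with pacDNA-Scr, all at 5.3 mg/kg, and 2 with Brush at 40 nanomoles. L9 is an antisense oligonucleotide of locked nucleic acid against the repeat, pacDNA is the bottlebrush polymer that carries it, Brush is that polymer alone and pacDNA-Scr carries a scrambled oligonucleotide. Every mouse, WT and NT included, is listed at 8 weeks of age. Treated mice were injected at that age and their muscle was taken 2 weeks after the last injection. The age at harvest is not stated. The 21.2 and 42.4 mg/kg totals were reached with 4 and 8 injections spread over 2 weeks, so dose and number of injections cannot be told apart.

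Satellite cells are the stem cells of skeletal muscle and lie beside the fibre in a quiescent state marked by Pax7. After injury they switch on Myf5 and Myod1, divide as myoblasts, then withdraw from the cycle under Myog and fuse with the help of the membrane proteins myomaker (Mymk) and myomixer (Mymx). Myf6, also called MRF4, differs from its relatives in being the myogenic factor that mature fibres keep expressing. In muscle that has lost its nerve, fibre nuclei themselves raise Myog and other genes that activity normally holds down, so neither Myog nor Myod1 belongs to regeneration alone. In bulk muscle, fewer cells of a type and less RNA per cell cannot be told apart.

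The libraries held 13605309 to 26956558 counts on genes. Each held 90458 to 152385 CPM (counts scaled to the library size) from 8 muscle fibre markers together, so the labelled tissue was present in all. The labels number 2 deposited sets separately, with 24 libraries in the first and 6 in the second (NT 7, NT 8, free L9 C, 21.2 mg/kg C, and mice C and D of the lowest dose). In 5 of those 6 no mitochondrial gene had a count. The fibre gene Tnnc2 and its neighbour Ube2c, noted after their values were seen, had at most 0.371 and 4.88 CPM in the first set but 5925 to 8522 and 6370 to 8228 CPM in the second. No member shares exon sequence with another gene of the table, and each result below was also computed in the first set alone. The 3 libraries at 42.4 mg/kg belong to the first set, came from female mice, and are among 9 that the table names by group and running number. Free L9 B stood apart, with 14485 genes detected and 22.3% mitochondrial counts. Nothing in the labels ties these libraries to separate litters or cages, so p-values measure the spread between the mice as labelled.

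A member was called at an adjusted p under 0.05 in edgeR's quasi-likelihood test. In the order of level per kilobase of exon, the medians over the 30 libraries were 65.7 CPM per kb for Myf6, 41.1 for Mef2c, 19.2 for Myod1, 9.22 for Myog, 4.32 for Cdh15, 0.646 for Mymk, 0.558 for Myf5, 0.384 for Pax7 and 0.227 for Mymx. The factor of mature fibres was thus the most abundant per length of the 9, and Mymk, Myf5, Pax7 and Mymx were all under 1 CPM per kb. Between groups, Myf6 moved most firmly at 42.4 mg/kg, where it was higher than in NT and in WT. It was also called higher in NT than in WT, but close to the threshold. Myog was called at 42.4 mg/kg with less support. In the main edgeR fit, of all libraries and without covariates, Pax7, Cdh15, Myf5, Myod1, Mef2c, Mymk and Mymx were called in no comparison.

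**Figure D1:**
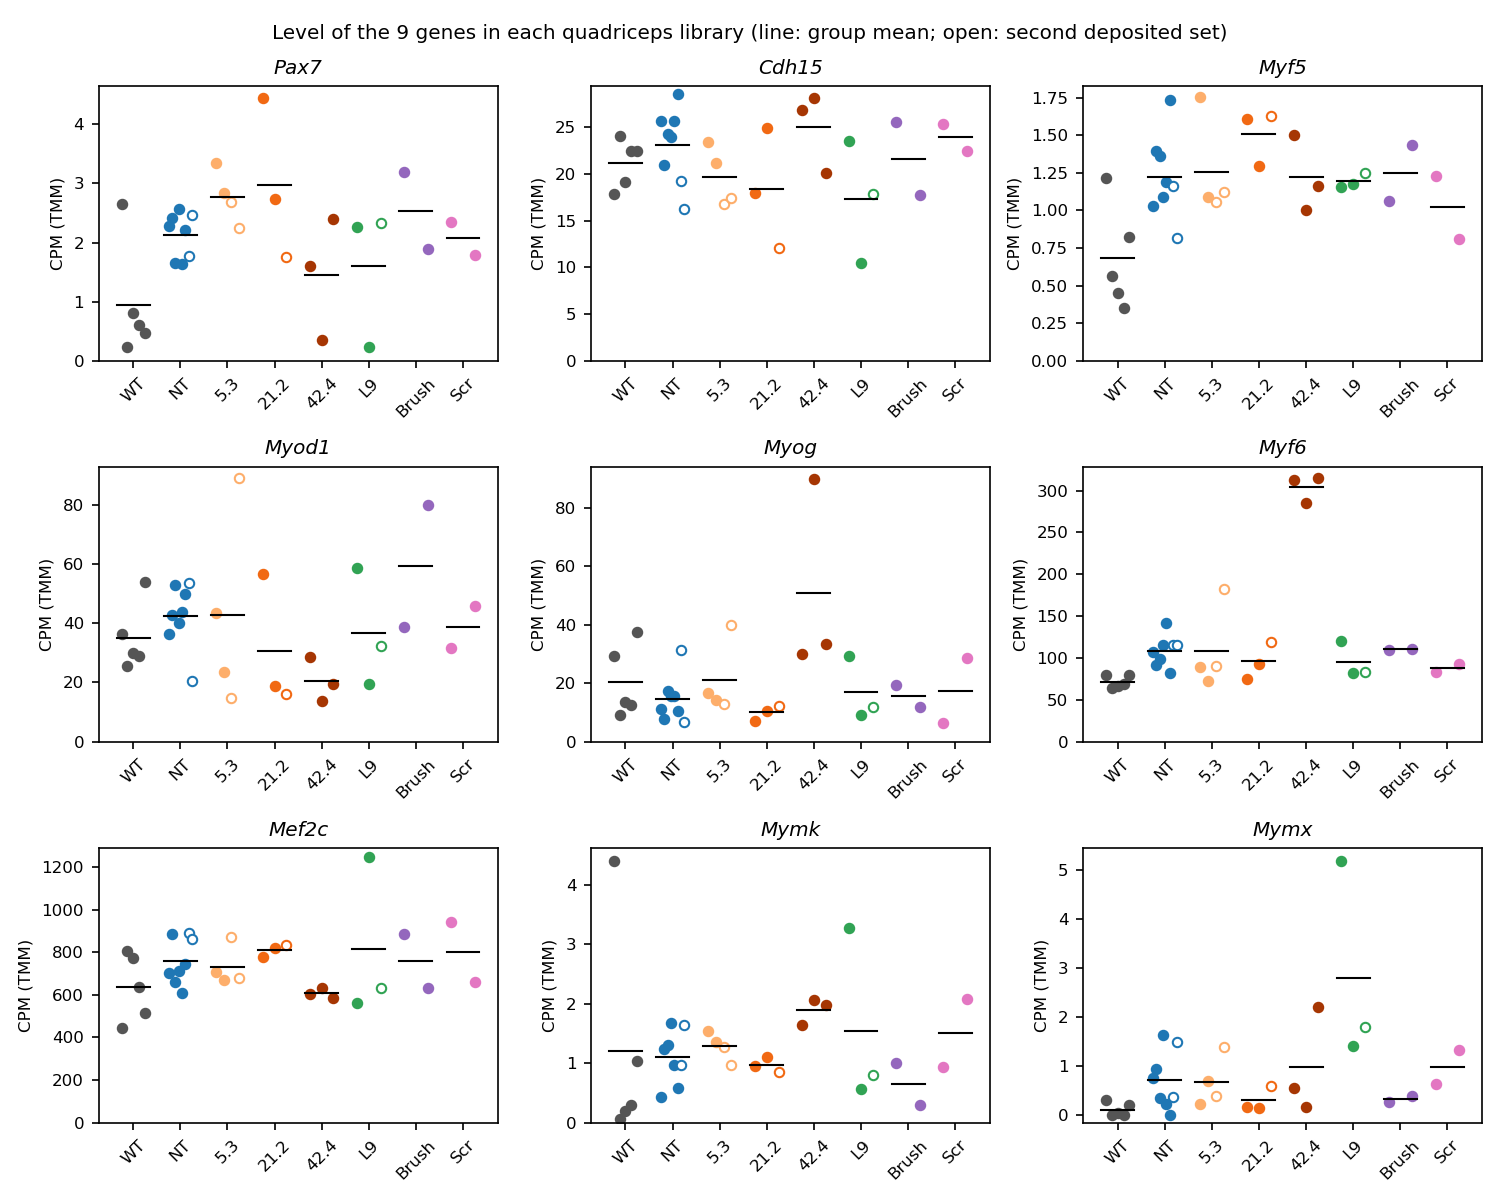
Each panel gives 1 gene, with CPM after TMM normalization on the vertical axis and the 8 groups on the horizontal one (5.3, 21.2 and 42.4 are mg/kg of pacDNA-L9, and Scr is pacDNA-Scr). A point is a mouse, an open point a library of the second deposited set and a line the group mean. The 3 Myf6 values at 42.4 mg/kg, 285 to 316 CPM, lie above those of all other mice.

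Myf6 (chr10:107328712-107330656 in GRCm39, minus strand) was measured at 64.6, 66.5, 69.2, 79.3 and 79.3 CPM in the 5 WT mice. In NT it ranged from 82.5 CPM in NT 6 to 142 CPM in NT 5, with a median of 111. The groups did not overlap, and Myf6 rose by 0.60 (log2 fold change, SE 0.17, adjusted p = 0.0426, edgeR) in NT, or 1.51-fold. In that comparison 4.97% of all genes tested were called, and of the members it was 1 of 9. This call lay close to the threshold: the adjusted p ran from 0.0318 to 0.114 when each mouse was left out in turn and was over 0.05 in 11 of 13 such fits, all but those without NT 2 or NT 6, with the highest without WT 2 (log2 fold change 0.56, adjusted p = 0.114). The call was also lost with no filter on low counts, with the deposited set as a covariate and with sex as a covariate, while in the first set alone it was kept (0.58, adjusted p = 0.0131).

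At 42.4 mg/kg Myf6 reached 285, 312 and 316 CPM, above each NT mouse. The remaining 27 libraries spanned 64.6 to 182 CPM. Relative to NT the log2 fold change was 1.48 (SE 0.19, adjusted p = 3.8e-05, edgeR), a rise of 2.80-fold, and Myf6 ranked 17 by p-value among the 17518 genes. In this comparison 2.57% of genes were called, and 2 of the 9 members, both higher. Relative to WT the rise was 4.24-fold (log2 2.08, SE 0.21, adjusted p = 3.39e-07), where 7.9% of genes and 1 of the 9 members were called. The mean at the highest dose thus lay farther from the WT level than that of NT.

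At the lower doses Myf6 was not called against NT. Mice given 21.2 mg/kg were at 75.1, 93.2 and 119.6 CPM, and those given 5.3 mg/kg at 72.5, 89.1, 89.9 and 182 CPM, the last in mouse D. All these but mouse D lie within or below the NT range, and the values of 72.5 and 75.1 CPM lie within the WT range. The log2 fold changes against NT were -0.0038 (SE 0.18) at 5.3 mg/kg and -0.18 (SE 0.20) at 21.2 mg/kg. Without single mice the former ran from -0.38 to 0.15. Contrasts between the doses, added after the values were seen, gave 1.66 for 42.4 against 21.2 mg/kg (SE 0.25, adjusted p = 0.00166, with 0.468% of genes called) and 1.49 for 42.4 against 5.3 mg/kg (SE 0.23, adjusted p = 0.000994, with 1.15% of genes called). Myf6 was the 1 member of 9 called in each. Both calls were lost when the model held only the groups compared (adjusted p = 0.118 and 0.0948), and the fold changes there were 1.63 and 1.49.

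The 42.4 mg/kg group differs from NT in more than dose: it is all female and all from libraries with running-number names. In the 6 other libraries named in that way Myf6 stood at 79.3 to 120.1 CPM, and in the 4 NT females at 99.1 to 142 CPM. The log2 fold change was 1.53 (adjusted p = 0.000958) with the naming as a covariate in the first set, 1.49 (adjusted p = 0.000139) with sex as a covariate and 1.36 (adjusted p = 0.0017) in female mice only, the last an alternative chosen after seeing the data. Over the 13 alternatives and the 11 fits without 1 mouse the value ran from 1.36 to 1.56, past the threshold in each. Macrophage markers moved in the same group: 3 of 6 were called higher than NT, where 2.57% of all genes were called in either direction. The summed level of the 6 markers was 78.9 to 111 CPM against 29.7 to 53.6 CPM in NT. In the 2 mice with Brush the same sum was 72.5 and 74.1 CPM, above the NT range and below that at 42.4 mg/kg. The part of these cells in the Myf6 result was not tested.

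In the control groups Myf6 was at 110.1 and 110.3 CPM with Brush, at 82.8 and 92.8 CPM with pacDNA-Scr, and at 82.0, 82.9 and 120.1 CPM with free L9. These values overlap those of NT or lie at its lower edge. The log2 fold changes against NT were 0.02 (SE 0.24) with Brush, -0.31 (SE 0.24) with pacDNA-Scr and -0.19 (SE 0.20) with free L9, and none was called. In descending order, the group means were 304 ± 16.9 CPM (SD) for the 3 mice at 42.4 mg/kg, 110.2 ± 0.16 for the 2 with Brush, 109 ± 18.1 for the 8 in NT and 108 ± 49.99 for the 4 at 5.3 mg/kg. Below these came 96.0 ± 22.3 for the 3 at 21.2 mg/kg, 95.0 ± 21.7 for the 3 with free L9, 87.8 ± 7.01 for the 2 with pacDNA-Scr and 71.8 ± 7.06 CPM for the 5 WT mice. Neighbours from Brush to pacDNA-Scr differed by less than their spread. None of these controls is listed at 42.4 mg/kg: pacDNA-Scr and free L9 were given at 5.3 mg/kg only, and Brush is listed in nanomoles. At 5.3 mg/kg pacDNA-L9 did not raise the Myf6 mean above that of NT either. The part of the carrier and of the oligonucleotide load in the rise at 42.4 mg/kg was therefore not tested.

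Myog (chr1:134217707-134220287, plus strand), the factor that commits myoblasts to differentiation, was measured at 30.0, 89.8 and 33.2 CPM at 42.4 mg/kg. NT ranged from 6.56 CPM in NT 8 to 31.2 CPM in NT 7, with a median of 13.4, and NT 7 lay above the lowest treated mouse. The change of 1.82 on the log2 scale (SE 0.49, adjusted p = 0.0481, edgeR), or 3.52-fold, was called. Mouse B carried much of it: without B the log2 fold change was 1.13 (adjusted p = 0.689). The adjusted p was 0.00829 with DESeq2, and the call was lost in 7 of the 13 alternatives, with adjusted p up to 0.487 when running-number names were a covariate, and in 9 of the 11 fits without 1 mouse, all but those without 42.4 mg/kg A or NT 7.

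Sex moved with Myog in NT. The 4 NT females were at 15.7 to 31.2 CPM and the 4 NT males at 6.56 to 11.0 CPM, a split noted after the values were seen and not tested. The male was also the lowest at 21.2 mg/kg (7.16 against 10.5 and 12.3 CPM), with Brush (11.9 against 19.2 CPM) and with pacDNA-Scr (6.21 against 28.5 CPM). With free L9 the male, at 12.0 CPM, lay between the females. In the 5.3 mg/kg group the only male, mouse D, was instead the highest at 39.8 CPM, and the WT male at 29.4 CPM was inside the female range of 9.04 to 37.5 CPM. With sex as a covariate the change at 42.4 mg/kg was 1.68 (adjusted p = 0.0912), and among females only it was 1.33 (adjusted p = 0.396).

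Elsewhere Myog was spread widely within groups. WT mice had 9.04, 12.6, 13.6, 29.4 and 37.5 CPM, a range that overlapped that of NT. The NT against WT log2 fold change was -0.50 (SE 0.44, adjusted p = 0.561). At 21.2 mg/kg Myog was at 7.16, 10.5 and 12.3 CPM, below all 3 mice at 42.4 mg/kg, but the difference of 2.35 (SE 0.67, adjusted p = 0.143) was not called by edgeR and was called by DESeq2 (adjusted p = 0.00511). Brush mice had 11.9 and 19.2 CPM, pacDNA-Scr mice 6.21 and 28.5 CPM, and free L9 mice 9.15, 12.0 and 29.4 CPM.

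**Figure D2:**
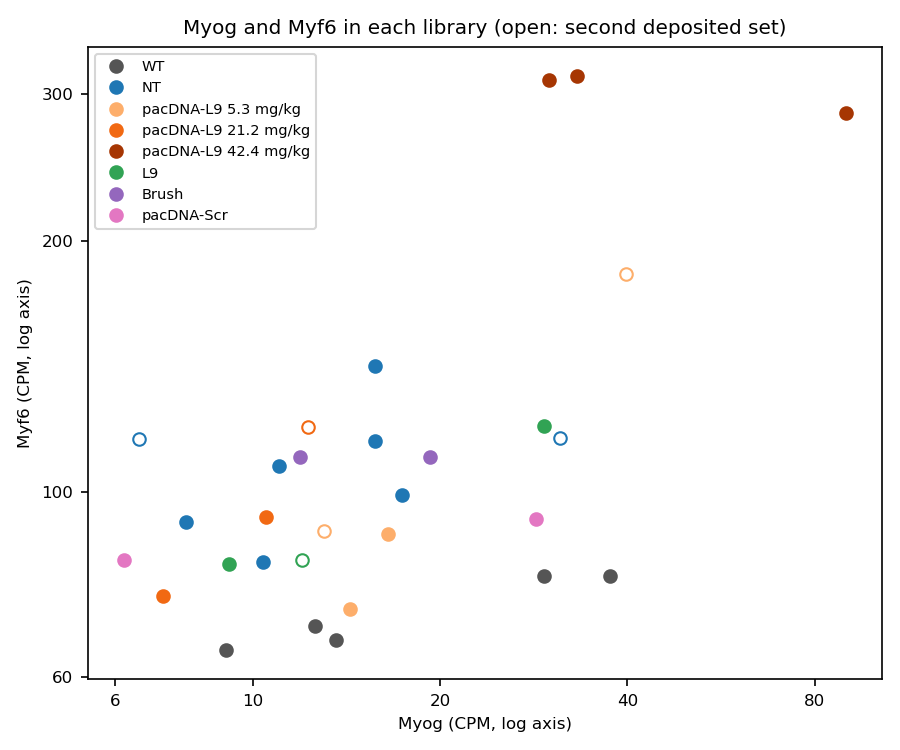
Myog on the horizontal axis and Myf6 on the vertical axis, both in CPM on log axes, for each of the 30 libraries coloured by group, with open points for the second deposited set. The 3 mice at 42.4 mg/kg lie at 285 to 316 CPM of Myf6 and 30.0 to 89.8 CPM of Myog, and 5.3 mg/kg mouse D is the next in Myf6 at 182 CPM.

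The sequence upstream of Myog is shown because the myogenic factors bind E-boxes, the letters CANNTG, and Myog is the called member for which a promoter could be read. It is the RefSeq window of 250 bases before the start (GRCm38.p6, chr1:134289754-134290003, plus strand), with the E-boxes in capitals.
Myog promoter: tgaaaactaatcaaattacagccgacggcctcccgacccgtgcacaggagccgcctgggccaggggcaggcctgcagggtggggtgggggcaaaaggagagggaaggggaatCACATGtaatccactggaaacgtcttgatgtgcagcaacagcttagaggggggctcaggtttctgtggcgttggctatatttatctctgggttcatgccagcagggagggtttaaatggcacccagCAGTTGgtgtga
It holds 2 E-boxes, whose first bases lie 138 and 12 bases before the start. Of the 32851 windows of this length in the RefSeq table, 31.8% hold at least 2 E-boxes and 66.2% at least 1, on either strand since the motif reads alike on both. The windows of 5 of the 9 members were found, 7 in all. The Cdh15 window holds 3 E-boxes, and 12.2% of all windows hold at least 3. The 3 Mef2c windows hold 2, 0 and 1, and those of Pax7 and Myf5 hold none. The MEF2 consensus was searched as YTAWWWWTAR, where Y is C or T, W is A or T and R is A or G. It had an exact match in 2.92% of windows and in none of the 7, which says only that these letters are absent there. Inexact matches were not searched. The Myog window holds ctatatttat, which departs from the consensus in its last base only.

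Myod1 (chr7:46025870-46028526, plus strand), which marks activated satellite cells and myoblasts and is also expressed in fast fibres, had its lowest group mean at 42.4 mg/kg, 20.6 ± 7.39 CPM (SD, n = 3). The 3 values there were 28.4, 13.8 and 19.5 CPM, against 20.3 to 53.6 CPM in NT with a median of 43.3. All NT mice but NT 8 were above the 3 treated mice. Against NT the log2 fold change was -1.05 (SE 0.47), with an adjusted p of 0.35 in edgeR, so Myod1 was not called. With 21.2 mg/kg Myod1 was at 56.6, 18.8 and 16.2 CPM and at 5.3 mg/kg at 43.5, 23.4, 14.8 and 88.9 CPM, the last again in mouse D. In WT it was at 36.2, 25.7, 30.0, 28.9 and 53.9 CPM and the NT against WT log2 fold change was 0.28 (SE 0.38, adjusted p = 0.725). With Brush it was at 38.8 and 79.9 CPM, with pacDNA-Scr at 31.6 and 45.8 CPM and with free L9 at 58.7, 19.4 and 32.4 CPM, and these values overlapped those of NT.

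Pax7 (chr4:139464373-139560839, minus strand), the transcription factor of quiescent satellite cells, was weakly detected, with 4 to 80 counts per library. WT mice 2, 3, 4 and the unnumbered one had 0.225, 0.802, 0.60 and 0.462 CPM, whereas WT 1 had 2.65 CPM. NT mice had 1.63 to 2.56 CPM, with a median of 2.25, so 4 of the 5 WT mice lay below every NT mouse and WT 1 above all of them. Over all 5 WT mice the log2 fold change was 1.16 (SE 0.51), with an adjusted p of 0.207 in edgeR. Without WT 1 it was 2.00 (SE 0.49) with an adjusted p of 0.016. WT 1 is also the only male WT mouse, and among females alone the log2 fold change was 1.85 (adjusted p = 0.208).

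In treated mice Pax7 was spread around the NT level. The 5.3 mg/kg mice had 3.35, 2.84, 2.69 and 2.24 CPM, the 21.2 mg/kg mice 4.44, 2.73 and 1.76 CPM, the Brush mice 3.20 and 1.88 CPM and the pacDNA-Scr mice 2.34 and 1.80 CPM. At 42.4 mg/kg mouse B had 0.354 CPM beside 1.59 and 2.40 CPM, and free L9 B had 0.224 CPM beside 2.26 and 2.32 CPM. Mouse B at 42.4 mg/kg is the one with the highest Myog and the lowest Myod1 of all 30 libraries. Its log2 fold change at 42.4 mg/kg against NT was -0.54 (SE 0.59, adjusted p = 0.734).

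Myf5 (chr10:107318769-107321995, minus strand), the first of the factors to appear in the embryo and a mark of committed satellite cells, lies 6716 bases from Myf6 on the same strand. It too was low, at 7 to 38 counts per library. WT mice had 1.22, 0.562, 0.451, 0.35 and 0.822 CPM, with WT 1 again the highest, and NT mice 0.82 to 1.73 CPM with a median of 1.18. NT against WT gave 0.84 (SE 0.28), with an adjusted p of 0.0828 in edgeR and 0.0287 in DESeq2, and 1.15 (adjusted p = 0.0131) without WT 1. Unlike its neighbour Myf6, Myf5 was at 1.5, 1.00 and 1.16 CPM at 42.4 mg/kg, inside the NT range, with a log2 fold change of -0.0012 (SE 0.32, adjusted p = 0.999). The difference between the changes of the 2 genes was not tested. In the 6 treated groups Myf5 spanned 0.81 to 1.76 CPM. The window before its start (GRCm38.p6, chr10:107486135-107486384, minus strand) is shown beside that of Myog because it holds no E-box, so no base is in capitals.
Myf5 promoter: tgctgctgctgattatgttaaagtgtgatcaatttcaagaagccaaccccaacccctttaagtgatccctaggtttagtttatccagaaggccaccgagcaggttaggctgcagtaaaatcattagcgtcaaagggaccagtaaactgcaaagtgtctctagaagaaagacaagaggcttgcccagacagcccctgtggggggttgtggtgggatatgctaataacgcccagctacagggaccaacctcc

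Cdh15, or M-cadherin (chr8:123574705-123596048, plus strand), which holds satellite cells to the fibre, varied least of the 9, by 2.72-fold between its lowest library, free L9 B at 10.5 CPM, and its highest, NT 6 at 28.5 CPM. WT mice had 17.9 to 24.0 CPM, NT mice 16.2 to 28.5 CPM and the 42.4 mg/kg mice 26.8, 28.2 and 20.1 CPM. These ranges overlap. The log2 fold change was 0.12 in both NT against WT (SE 0.18, adjusted p = 0.749) and 42.4 mg/kg against NT (SE 0.21, adjusted p = 0.859). The lowest fold change against NT was that of free L9, -0.41 (SE 0.22, adjusted p = 0.565).

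Mef2c (chr13:83652064-83815555, plus strand), the MADS-box factor that works with the myogenic factors, was the most counted member at 445 to 1249 CPM. The 42.4 mg/kg mice had 603, 634 and 585 CPM, beside 610 to 892 CPM in NT, 779 to 834 CPM at 21.2 mg/kg and 668 to 871 CPM at 5.3 mg/kg. The mice at the highest dose thus lay near the lower edge of NT and below both lower doses, with a log2 fold change against NT of -0.32 (SE 0.21, adjusted p = 0.471). WT mice had 445 to 806 CPM and NT against WT gave 0.26 (SE 0.17, adjusted p = 0.409). Free L9 B had 1249 CPM, the highest of all, and without it the change with free L9 turned from 0.10 to -0.37 (adjusted p = 0.911). Brush mice had 884 and 632 CPM and pacDNA-Scr mice 940 and 661 CPM.

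Mymk (chr2:26951627-26962228, minus strand) encodes myomaker, the membrane protein that myoblasts need to fuse. WT mice had 4.40, 0.0562, 0.201, 0.30 and 1.03 CPM, which places WT 1 above all other libraries and WT 2 below them. NT mice had 0.434 to 1.68 CPM with a median of 1.10. NT against WT gave -0.12 (SE 0.62, adjusted p = 0.942), and without WT 1 the sign turned, to 1.45 (SE 0.57, adjusted p = 0.196). In the 42.4 mg/kg mice Mymk was at 1.64, 2.07 and 1.98 CPM, near or above the top of NT, with a log2 fold change of 0.78 (SE 0.71, adjusted p = 0.659). Against WT it was 0.66 (SE 0.79, adjusted p = 0.763), and 2.22 (adjusted p = 0.0416) without WT 1. The remaining groups spanned 0.297 CPM in Brush B to 3.27 CPM in free L9 A.

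Mymx (chr17:45911239-45913028, minus strand) encodes myomixer, the small protein that completes membrane fusion with myomaker. It was the least counted member, with 0 to 103 counts, and was listed at 0 in WT 2, WT 4 and NT 6, where a count of 0 allows up to 0.169, 0.15 and 0.144 CPM. WT mice had 0.318, 0, 0.0501, 0 and 0.205 CPM and NT mice 0 to 1.64 CPM with a median of 0.566. NT against WT gave a log2 fold change of 2.59 (SE 0.92), with an adjusted p of 0.119 in edgeR and 0.0202 in DESeq2. Mice at 42.4 mg/kg had Mymx at 0.563, 0.177 and 2.21 CPM. The change against NT was 0.46 (SE 0.91, adjusted p = 0.877), and without mouse C it was -0.93 (SE 1.15, adjusted p = 0.824). Against WT it was 3.04 (SE 1.05) with an adjusted p of 0.0784 in edgeR, 0.0267 in DESeq2 and 0.0427 with the deposited set as a covariate. Without WT 1 the change against WT was 3.81 (adjusted p = 0.0474), and without mouse C at 42.4 mg/kg it was 1.65 (adjusted p = 0.535).

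Free L9 had the highest group mean of Mymx, 2.79 CPM. Its mice had 5.18, 1.40 and 1.79 CPM, of which only free L9 A lay above every other library. The log2 fold change against NT was 1.95 (SE 0.86, adjusted p = 0.48, edgeR), and Mymx was the 1 member with an unadjusted p under 0.05 in that comparison, where no member and 0.126% of genes were called. Brush mice had 0.266 and 0.396 CPM, pacDNA-Scr mice 0.644 and 1.34 CPM, 5.3 mg/kg mice 0.22 to 1.39 CPM and 21.2 mg/kg mice 0.144 to 0.601 CPM, all within the NT range.

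**Figure D3:**
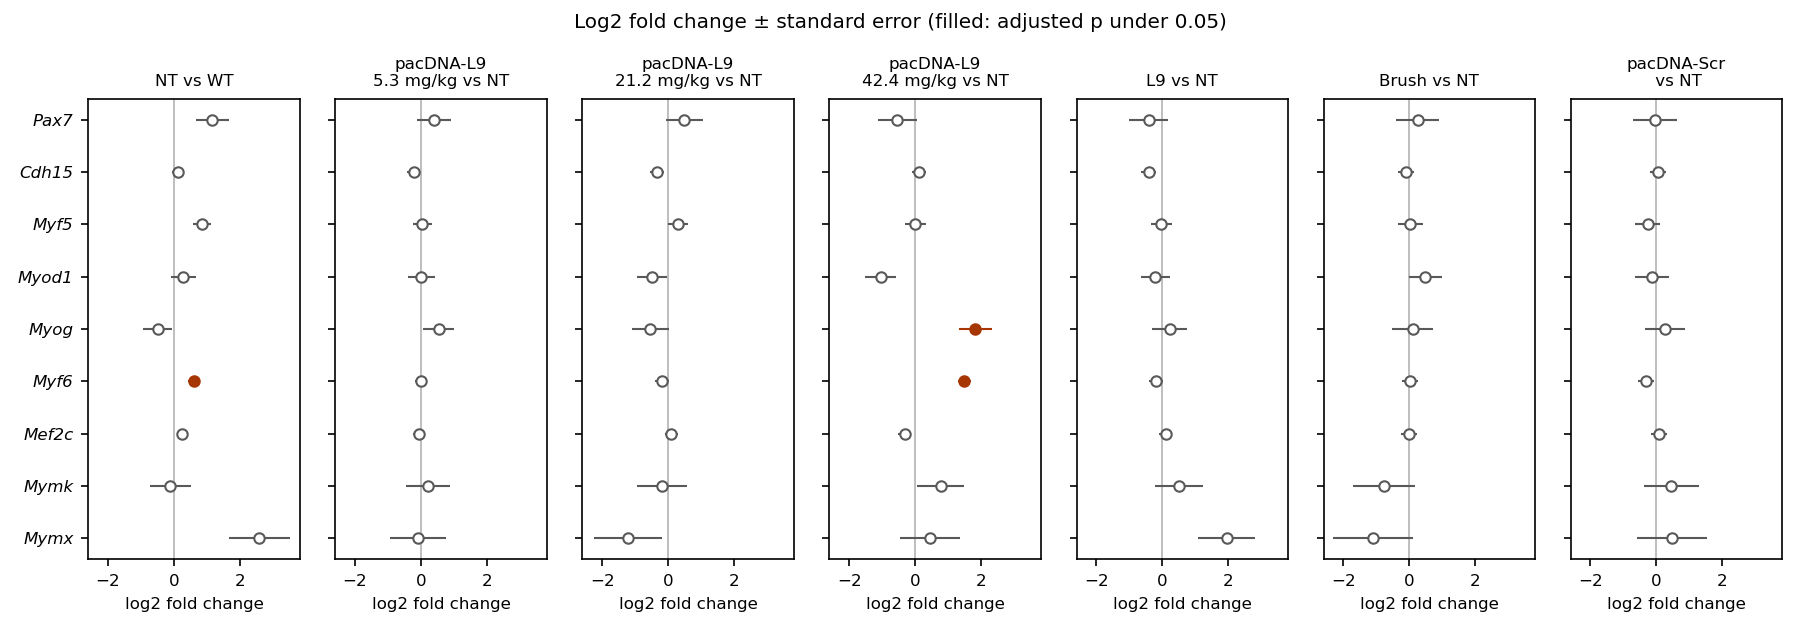
Log2 fold changes of the 9 genes (rows) in 7 comparisons (panels), with bars of 1 standard error, and filled points where edgeR's adjusted p was under 0.05. The filled points are Myf6 in NT against WT (0.60) and Myf6 (1.48) and Myog (1.82) at 42.4 mg/kg against NT.

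Across the carriers and lower doses no member was called by edgeR or by DESeq2. At 5.3 mg/kg, 21.2 mg/kg, with Brush and with pacDNA-Scr, 0 members also had an unadjusted p under 0.05. Of all genes, edgeR called 0% at 5.3 mg/kg, 0.0514% at 21.2 mg/kg, 0% with Brush and 0% with pacDNA-Scr, so the members' counts of 0 match the background. Among all genes at 5.3 mg/kg 250 had an unadjusted p under 0.05 and DESeq2 called 1, with Brush 217 had such a p and DESeq2 called 86, and with pacDNA-Scr 182 had such a p and DESeq2 called 313. The median log2 fold change over the 9 members was 0.28 in NT against WT and 0.12 at 42.4 mg/kg against NT, beside 0.03 and -0.06 over all genes. All comparisons with NT share the same 8 NT mice.

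Other genes of the programme, in lists chosen with these data known, were mostly not called. Of all genes, edgeR called 4.97% in NT against WT and 2.57% at 42.4 mg/kg against NT. Of 16 further satellite cell genes, edgeR and DESeq2 called 0 in NT against WT, where 2 had an unadjusted p under 0.05. At 42.4 mg/kg 1 was, the co-receptor Sdc4 (syndecan-4), at 39.1, 226 and 54.7 CPM against 15.0 to 37.0 CPM in NT (log2 fold change 2.21, SE 0.41, adjusted p = 0.00263), and mouse B was again the highest. Sdc4 is also made by other cells of muscle. Of 11 tested fusion genes other than Mymk and Mymx, and of 9 partners and inhibitors of the myogenic factors, edgeR called 0 in NT against WT and 0 at 42.4 mg/kg against NT. In the former 2 fusion genes and 2 partners had an unadjusted p under 0.05, in the latter 0 and 2, and DESeq2 called those 2 partners, Tcf4 and Bhlhe41, lower and none of the rest. Against WT, Tcf4, an E-protein partner, fell by 0.59 at 42.4 mg/kg (SE 0.16, adjusted p = 0.0195). The medians of the 16, 11 and 9 genes at 42.4 mg/kg against NT were -0.10, -0.07 and -0.39, beside -0.06 over all genes.

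Among 7 genes of the Mef2 family and the class IIa histone deacetylases that repress it, edgeR and DESeq2 called 0 in NT against WT, where 0 had an unadjusted p under 0.05, and each called 2 at 42.4 mg/kg. Of all genes, edgeR called 4.97% in NT against WT and 2.57% at 42.4 mg/kg against NT, where DESeq2 called 1380 genes. Hdac4, whose level rises in denervated fibres, was at 106 ± 37.1 CPM (n = 3) there against 54.5 ± 12.1 CPM (n = 8) in NT (log2 fold change 0.96, SE 0.24, adjusted p = 0.0262). Hdac9, a relative of Hdac4, was at 5.66 ± 2.65 CPM against 14.5 ± 3.68 CPM (log2 fold change -1.36, SE 0.34, adjusted p = 0.0268). In the first set alone Hdac9 was called and Hdac4 was not.

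Genes of denervated or inactive muscle were called in 1 direction. Of 9 tested, edgeR called 2 higher in NT than in WT, 2 higher at 42.4 mg/kg than in NT, and 4 higher at 42.4 mg/kg than in WT, with 0 lower in each, beside 4.97%, 2.57% and 7.9% of all genes called in either direction. DESeq2 called 2, 4 and 6 higher and 0 lower, beside 1957, 1380 and 2075 of all genes called in either direction. Runx1, a factor induced by loss of the nerve, averaged 3.15 ± 0.766 CPM (SD) over the 5 WT mice. It averaged 9.76 ± 2.86 CPM over the 8 NT mice and 20.2 ± 2.36 CPM over the 3 mice at the highest dose. Its log2 fold changes were 1.63 (SE 0.24, adjusted p = 9.48e-05) in NT against WT and 1.05 (SE 0.26, adjusted p = 0.0218) at 42.4 mg/kg against NT. Gadd45a, a stress gene of denervated fibres, rose at 42.4 mg/kg to 105 to 114 CPM from 16.4 to 43.9 CPM in NT (log2 fold change 1.95, SE 0.33, adjusted p = 0.00115). Ncam1, a cell adhesion molecule of satellite cells, of new fibres and of denervated fibres, rose in NT (log2 fold change 1.26, SE 0.25, adjusted p = 0.00266). The medians of the 9 genes were 0.81 in NT against WT and 0.73 at 42.4 mg/kg against NT, beside 0.03 and -0.06 over all genes. In each of these comparisons 8 of the 9 lay above 0 and 1 below, the lowest values being -0.29 and -0.22. In the first set alone edgeR called the same genes as over all libraries in those 2 comparisons, and 5 at 42.4 mg/kg against WT.

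Of 10 genes of regenerating fibres, 2 rose and 1 fell in NT against WT, likewise 2 and 1 at 42.4 mg/kg against WT, and edgeR and DESeq2 called 0 at 42.4 mg/kg against NT, where 0 had an unadjusted p under 0.05. Of all genes, edgeR called 4.97%, 7.9% and 2.57% in these comparisons, in that order. The neonatal myosin Myh8 rose from 10.9 ± 3.46 CPM in WT to 25.3 ± 9.93 CPM in NT (log2 fold change 1.21, SE 0.34, adjusted p = 0.0366), a call lost in the first set alone, and cardiac actin Actc1 fell from 961 ± 1257 CPM to 38.1 ± 21.6 CPM (log2 fold change -4.66, SE 0.57, adjusted p = 8.59e-06). Ncam1, which is also in the denervation list, was the second that rose. Embryonic myosin Myh3, the usual mark of fibres formed after injury, was at 1.40 to 9.61 CPM in WT, 2.02 to 8.15 CPM in NT and 4.13 to 7.98 CPM at 42.4 mg/kg, with log2 fold changes of 0.33 (SE 0.42, adjusted p = 0.711) and 0.41 (SE 0.48, adjusted p = 0.754). The median log2 fold change of the 10 genes was 0.34 in NT against WT, 0.41 at 42.4 mg/kg against NT and 0.75 at 42.4 mg/kg against WT, beside 0.03, -0.06 and -0.02 over all genes, with 8, 7 and 7 of the 10 above 0.

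Of 9 proliferation genes, edgeR called 0 in NT against WT and 0 at 42.4 mg/kg against NT, with 3 and 1 at an unadjusted p under 0.05. DESeq2 called 1 in each, Ube2c. Of all genes, edgeR called 4.97% and 2.57% in these comparisons. The median log2 fold change of the 9 genes was -0.82 in NT against WT and -0.02 at 42.4 mg/kg against NT, beside 0.03 and -0.06 over all genes. In NT against WT 4 of the 9 lay above 0 and 5 below. Mki67 and Top2a, which dividing cells express, were at most 4.82 and 4.66 CPM in any library, both in WT 1. That mouse also had the highest Mymk, Actc1 at 3185 CPM and the highest Pax7 and Myf5 of the WT group. The unnumbered WT mouse had 3.49 CPM of Mki67 and 2.93 CPM of Top2a. In NT against WT the log2 fold changes were -1.41 (SE 0.62, adjusted p = 0.207, edgeR) for Mki67 and -1.31 (SE 0.76, adjusted p = 0.323) for Top2a. In mice given 42.4 mg/kg Mki67 was at 0.886 to 1.43 CPM and Top2a at 0.426 to 0.886 CPM. Ube2c, a proliferation gene by name, is the gene that separates the deposited sets, so sums over this list compare only within a set.

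**Figure D4:**
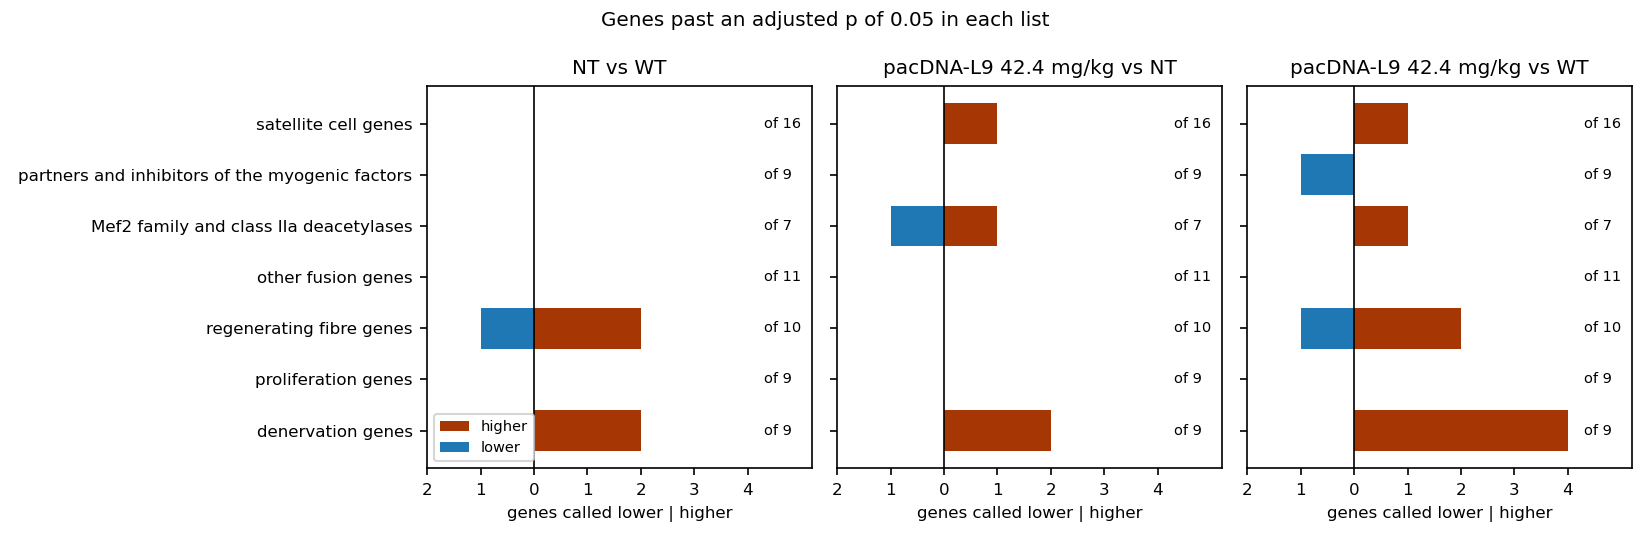
Bars count the genes of each list (rows) past an adjusted p of 0.05 in edgeR, higher to the right and lower to the left, in 3 comparisons (panels), with the number tested at the right edge. Denervation genes have 2, 2 and 4 called higher, and fusion and proliferation genes have 0 in each.

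The genes most like 8 of the members were found by Spearman correlation of log2 CPM over the 24 libraries of the first set, among 12604 genes with a mean of at least 1 CPM. These libraries share groups and depth, and the values are a description. Myf6 was most like Uchl1 (0.88) and Map2k3 (0.88), and Myog most like the chaperonin subunits Cct3 (0.87) and Cct5 (0.86). Myod1 was most like Zfp513 (0.83) and Pard6a (0.78), Pax7 most like Mppe1 (0.87) and Pms2 (0.81), and Cdh15 most like Rabgef1 (0.83) and Polr1b (0.76). Mef2c was most like Gsk3b (0.93) and Strn3 (0.93), Mymk most like the noncoding RNA H19 (0.84) and Rhoc (0.77), and Mymx most like Emsy (0.79) and Aldh3a1 (0.79). Among the members themselves, Myog ran with Mymk (0.68) and against Mef2c (-0.77). Mef2c also ran against Mymk (-0.48). Myf6 ran with Mymx (0.50), Myog (0.50) and Mymk (0.49), Mymk ran with Mymx (0.49) and Pax7 with Myf5 (0.46), while Myod1 and Myog were unrelated (0.0026).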

How the data were processed

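Quadriceps RNA of 30 mice was sequenced after poly(A) enrichment as paired reads. The authors mapped the reads to GRCm39 (HISAT2 2.0.5 in the submitters' processing notes) and deposited raw counts per gene for 56748 Ensembl genes without normalization. The counting options are not given in the sources used here. Symbols came from GENCODE vM39, which matched 56017 genes. One WT column could not be tied to a numbered mouse and was used as an unnumbered WT replicate. Sex was read from the counts. No 2 replicates agreed within sampling noise (lowest chi-square per degree of freedom 19.8).

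The count table was fitted in R 4.3.3 by edgeR 4.0.16: filterByExpr (17518 genes), TMM, and a robust quasi-likelihood fit with a coefficient for each of the 8 groups in all libraries, tested on simulated data first. Benjamini-Hochberg adjustment ran across the 17518 genes and calls were made at 0.05. The SE is the log2 fold change divided by the square root of F. CPM use TMM-scaled library sizes. DESeq2 1.42.0 and other filters, scalings, covariates and subsets were alternatives. Depth limits the genes under 100 counts, and floors of 3 counts cover counting error only.

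The 9 members and all lists were chosen with earlier results of these data known. All 9 members are named in each comparison. From each list at most 3 called genes are named, by adjusted p in NT against WT and then at 42.4 mg/kg against NT. Tcf4, Myh3, Mki67, Top2a, Tnnc2 and Ube2c were named after their values were seen. Promoter sequences are from RefSeq on GRCm38.p6, a build other than that of the counts. The genes most like Myf5 are not reported here.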

Additional observations from a re-analysis of the deposited data

Results flagged for a closer look

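Within the WT, NT and 5.3 mg/kg groups, which hold 4 to 10 mice, 27 combinations of gene and group were searched for a mouse far from the rest by Dixon's criterion, which chance meets in about 1 in 20 groups. It picked out 6. WT 1 stood above the other WT mice in Pax7 (2.65 CPM) and in Mymk (4.40 CPM), as told above with the values without it. NT 7 stood above the other NT mice in Myog (31.2 CPM). In the 5.3 mg/kg group mouse D stood above the others in Myog (39.8 CPM) and in Myf6 (182 CPM), and mouse A in Myf5 (1.76 CPM). NT 7 and mouse D belong to the second deposited set, and mouse D is the only male of its group. The part of set and sex in these values was not tested.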

How the results depend on the processing

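The call of Myf6 at 42.4 mg/kg against NT and against WT held in each alternative run, and no member was called in any alternative at 5.3 mg/kg, 21.2 mg/kg, with free L9, Brush or pacDNA-Scr. Other counts of called members moved. In NT against WT the 1 call became 0 with no filter, with the set or sex as a covariate and with a further limit of 1 on the absolute log2 fold change, became 3 with DESeq2, and ran from 0 to 2 without single mice. At 42.4 mg/kg against NT the 2 calls became 1 with DESeq2's size factors in edgeR, library size alone, no filter, sex or running-number names as a covariate, only the groups compared, or female mice only, and ran from 1 to 2 without single mice. Against WT the 1 call became 2 with the set as a covariate and with DESeq2, and ran from 1 to 4. Against 21.2 mg/kg it became 0 with only the groups compared and 2 with DESeq2, and against 5.3 mg/kg 0 with only the groups compared. Over all genes DESeq2 also called more than edgeR in these comparisons. It called 1957 beside 871 in NT against WT and 1380 beside 450 at 42.4 mg/kg against NT. At 42.4 mg/kg it called 2075 beside 1384 against WT and 762 beside 82 against 21.2 mg/kg.

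Signs turned, with no call, in females only for Myog in NT against WT (0.14) and at 5.3 mg/kg (-0.44), Mymk in NT against WT (1.62), Myod1 at 5.3 mg/kg (-0.80) and Myod1 between 42.4 and 21.2 mg/kg (0.23), and with running-number names for Mef2c between 42.4 and 5.3 mg/kg (0.073). Without single mice the log2 fold change ran from -0.42 to 1.45 (without WT 1) for Mymk in NT against WT, from -0.65 (without mouse D) to 0.27 for Myod1 at 5.3 mg/kg, from -0.37 (without mouse B) to 0.31 for Mef2c with free L9, from -1.22 (without mouse B) to 0.98 for Myog with pacDNA-Scr, and from -0.88 to 0.23 (without 21.2 mg/kg A) for Myod1 between 42.4 and 21.2 mg/kg. The causes were not tested. A sign was taken as turned only where a value exceeded its SE.

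A replicate block was possible for WT and NT mice 1 to 4 only. Same-number correlations of 0.144, -0.0493, 0.106 and 0.168 do not show that the numbers pair the mice. With the replicate block 1 member was called, as without it, and Myf6 changed by 0.56 (adjusted p = 0.0191). Female mice only and the contrasts between doses were chosen after seeing the data. With 10 counts required in every library the rarest members were not tested.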
